A study of Mus musculus with 12 samples.

Results

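FOXN1 is the forkhead transcription factor on which the epithelium of the thymus depends. Its expression was followed here together with 8 genes of the cortical thymic epithelium, Psmb11, Prss16, Ly75, Ctsl, Kitl, Tbata, Krt8 and Krt18. The 9 genes were taken by symbol from a table of 22843 genes, and all 9 were detected in every library and passed the filter on low counts. RNA came from the whole thymus of wild type male C57BL/6 mice aged 2 weeks (2W), 6 weeks (6W) and 3 months (3M), with 2 biological replicates at each age and no treatment. The study asked how the organ's transcripts change while it grows from 2W to 6W and in its later decline from 6W to 3M.

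Cortical epithelial cells form the outer network of the thymus in which CD4+CD8+ (double-positive) thymocytes are selected. They draw progenitors in and support them with chemokines, Notch ligands and cytokines, and they present peptides cut by enzymes that few other cells make. FOXN1 is needed for their differentiation, and its loss leaves an animal without a working thymus, as in the nude mouse. The organ is made mostly of thymocytes, so that epithelial transcripts are a small part of its RNA. In RNA of a whole organ, fewer cells of a type and less RNA per cell cannot be told apart.

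Values are normalised counts per 1000000 (CPM), from estimated counts summed over the transcripts of a gene. The 6 libraries held 16519753 to 22553481 estimated counts. Changes are log2 fold changes with a standard error (SE), and a change was called when its p, adjusted over 14805 genes (edgeR quasi-likelihood test, Benjamini-Hochberg), was under 0.05. With 2 libraries at each age, p-values measure the spread between these few mice, and an exact permutation test of a single gene could not go below 0.333. The 3 comparisons share libraries and are not independent of each other. Haemoglobin and other red blood cell genes stood apart in 3M replicate 2, where they summed to 1658 CPM against 303 to 629 CPM in the other 5 libraries.

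The upstream sequences of a pair of these genes are shown first, Psmb11 because it is a direct target of FOXN1 in this epithelium and Ly75 because it rose most. Each is the 250 bases before the RefSeq start of the gene (build GRCm38.p6), written in the direction of the gene, Psmb11 at chr14:54625060-54625309 on the + strand and Ly75 at chr2:60383274-60383523 on the - strand. Capitals mark the core motif read by FOXN1, GACGC, or GCGTC where it lies on the other strand.
Psmb11: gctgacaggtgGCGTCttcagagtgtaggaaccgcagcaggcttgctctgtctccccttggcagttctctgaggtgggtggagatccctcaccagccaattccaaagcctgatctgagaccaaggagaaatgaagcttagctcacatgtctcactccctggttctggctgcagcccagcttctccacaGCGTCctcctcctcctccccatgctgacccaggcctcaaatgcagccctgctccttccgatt
Ly75: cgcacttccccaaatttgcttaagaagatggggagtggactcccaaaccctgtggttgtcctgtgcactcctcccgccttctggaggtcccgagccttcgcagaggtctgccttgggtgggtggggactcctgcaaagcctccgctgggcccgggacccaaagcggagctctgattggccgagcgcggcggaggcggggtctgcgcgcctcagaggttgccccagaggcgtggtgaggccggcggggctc
The motif starts 239 and 62 bases before the start of Psmb11 and is absent from the Ly75 window. Of the 8 genes found in the promoter table (all but Prss16), 2 hold it (Psmb11 and Kitl). Over all 32851 promoter windows of this length 22.6% hold it, so the share among these genes, 25%, is near that of any gene. Among the first windows of 27025 genes, 5.88% hold it 2 or more times. These are matches of letters, not measured binding.

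Between 2W and 3M, Foxn1 fell while Prss16 and Ly75 rose, and the other 6 genes passed no test. None of the 9 was called by edgeR between 2W and 6W, where 2 had an unadjusted p under 0.05 (18.9% of all genes) and DESeq2 called 0, or between 6W and 3M, where 4 did (14.3%) and DESeq2 called 2. From 2W to 3M, 3 of the 9 had an unadjusted p under 0.05, as had 27.3% of all genes. For all genes tested, the shares called were 1.74% from 2W to 6W, 0.00675% from 6W to 3M and 11.0% from 2W to 3M. By the study's own threshold (unadjusted p under 0.05 and a log2 fold change over 1 in size) 0 of the 9 passed in any comparison, where 5.36%, 2.11% and 9.35% of all genes did. The median change of the 9 was -0.15 from 2W to 6W, 0.37 from 6W to 3M and 0.14 from 2W to 3M, beside -0.0061, 0.023 and -0.026 over all genes tested. For 6, 7 and 5 of the 9, no library of one age lay within the range of the other in these comparisons, which held for 57.8%, 49.2% and 51.8% of all genes.

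**Figure D1:**
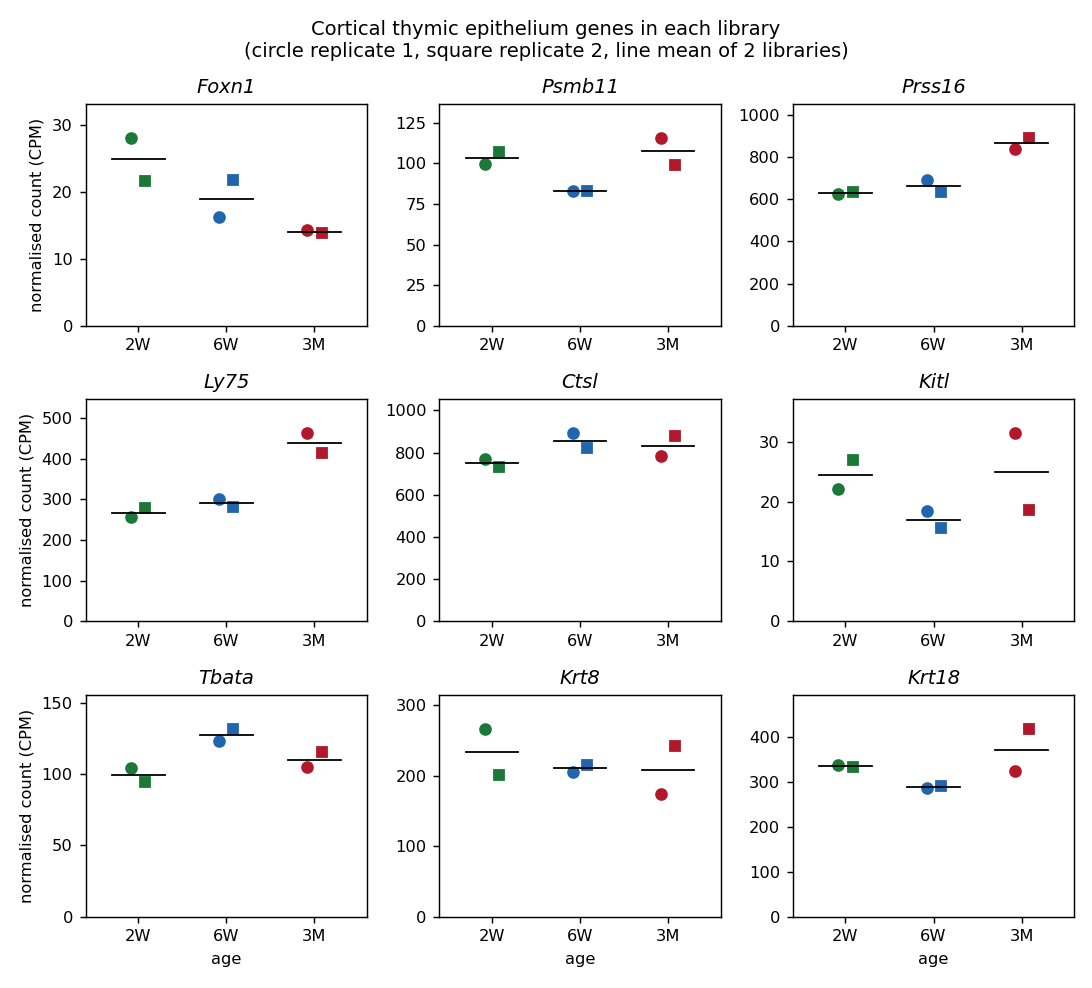
Normalised counts (CPM, vertical axis from 0) of the 9 genes at 2W, 6W and 3M (horizontal axis); circles are replicate 1, squares replicate 2 and lines the mean of 2 libraries. Foxn1 is lowest at 3M (13.8 and 14.3 CPM), and Prss16 and Ly75 are highest there (838 to 893 and 414 to 464 CPM).

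Foxn1, the regulator, had 28.1 and 21.6 CPM at 2W, 16.2 and 21.8 at 6W and 14.3 and 13.8 at 3M. Both 3M libraries lay below all 4 younger ones, and the 2W and 6W libraries overlapped. The mean went from 24.8 ± 4.63 (SD, n = 2) at 2W to 14.0 ± 0.366 at 3M, a fold change of 0.565. The log2 change was -0.82 (SE 0.20, adjusted p = 0.0465) from 2W to 3M, -0.39 (SE 0.20, adjusted p = 0.335) from 2W to 6W and -0.44 (SE 0.20, adjusted p = 0.374) from 6W to 3M. The call lay close to the threshold. It was kept under 2 of 8 other ways of processing (adjusted p 0.00818 to 0.346 over the 8) and under 0 of 6 fits with a library left out, where the change was -1.0 to -0.62 and the adjusted p 0.0668 to 0.189.

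Psmb11 encodes the catalytic beta subunit that replaces Psmb5 and Psmb8 in the thymoproteasome, the form of the proteasome that cortical epithelium uses to make peptides for the selection of CD8+ T cells. It had 99.7 and 107 CPM at 2W, 82.9 and 82.7 at 6W and 116 and 99.0 at 3M. The 6W libraries were the lowest, and the 2W and 3M libraries overlapped. The changes were -0.32 (SE 0.12, adjusted p = 0.230) and then 0.38 (SE 0.12, adjusted p = 0.276), with 0.05 (SE 0.12, adjusted p = 0.813) from 2W to 3M. Per length, Psmb11 stood at 0.280 to 0.392 of the FPKM (fragments scaled by transcript length and depth) of Psmb5, its counterpart in the common proteasome, with the lowest ratios at 6W (0.280 and 0.290). Both were measured in RNA of the whole organ, so the ratio does not show an exchange of subunits within any cell.

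Prss16, a serine protease almost confined to the thymus that serves the selection of CD4+ T cells, had 627 and 637 CPM at 2W, 691 and 636 at 6W and 838 and 893 at 3M. The 3M libraries lay above the other 4. The log2 change from 2W to 3M was 0.45 (SE 0.096, adjusted p = 0.0314), a fold change of 1.37, and the 2 steps gave 0.07 (SE 0.096, adjusted p = 0.723) and 0.38 (SE 0.096, adjusted p = 0.232). The call from 2W to 3M was kept under 6 of 8 other ways of processing (adjusted p 0.00180 to 0.111 over all 8). It was lost in the fit of only the 4 libraries compared (adjusted p = 0.111) and in a fit with a replicate block. With a library left out the change was 0.37 to 0.52, and the call was lost without any library other than 3M replicate 1.

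Ly75, an endocytic receptor that cortical epithelium shares with dendritic cells, had 257 and 278 CPM at 2W, 302 and 283 at 6W and 464 and 414 at 3M. The 3 ages did not overlap, and most of the difference lay between 6W and 3M. The log2 change was 0.13 (SE 0.11, adjusted p = 0.557) from 2W to 6W, 0.58 (SE 0.11, adjusted p = 0.206) from 6W to 3M and 0.71 (SE 0.11, adjusted p = 0.0144) from 2W to 3M, a fold change of 1.64. It kept its call under 7 of 8 other ways of processing (adjusted p 3.54e-07 to 0.0524 over all 8) and lost it in the fit of only the 4 libraries compared (adjusted p = 0.0524) and without either 2W or either 6W library (adjusted p 0.0550 to 0.0799). With DESeq2 in place of edgeR, Ly75 (adjusted p = 0.000604) and Prss16 (adjusted p = 0.0459) were also called from 6W to 3M, among 341 genes in all, whereas over the 8 other ways these p-values reached 0.445 and 0.471.

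Markers of dendritic cells moved with age as well. Of 7 listed genes 2 rose from 2W to 6W and 5 from 2W to 3M, among them Itgax and Cd209a in both, and none was at 0 in any library. Of all genes tested, 1.74% were called in either direction from 2W to 6W, and 7.91% rose from 2W to 3M. Their summed level was 89.0 to 97.7 CPM at 2W, 154 to 157 at 6W and 159 to 187 at 3M. The part of dendritic cells in the Ly75 result was not tested.

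Ctsl, the cysteine protease that cleaves the invariant chain in cortical epithelium, had 771 and 730 CPM at 2W, 892 and 820 at 6W and 782 and 876 at 3M. The 2W libraries were the lowest, and those of 6W and 3M overlapped. No change passed the test (0.19, SE 0.10, adjusted p = 0.369 from 2W to 6W, and 0.14, SE 0.10, adjusted p = 0.428 from 2W to 3M). Several other genes of this pathway were called. Of 6 measured lysosomal genes of class II presentation, 3 rose from 2W to 6W (Ctss by 1.24, Ctsb by 0.77 and Ctsh by 0.72), and these together with Lgmn (1.03) and Cd74 (0.88) from 2W to 3M, leaving Ctsd (386 to 607 CPM) as the one not called. The call of Cd74 (adjusted p = 0.0452) was kept under 3 of 8 other ways of processing and in 1 of 6 fits with a library left out, whereas those of Ctss and Ctsb from 2W to 3M were kept in all of them. The median change of the 6 from 2W to 3M was 0.96. Among all genes tested, 7.91% rose over that span, and 1.74% were called in either direction from 2W to 6W. Ctss, the counterpart of Ctsl in dendritic cells and macrophages, went from 58.8 and 62.2 CPM at 2W to 163 and 168 at 3M. Macrophages also hold Ctsl, and 6 of 8 macrophage markers, none of them at 0 in any library, rose from 2W to 3M, with a sum of 209 to 257 CPM at 2W, 434 to 462 at 6W and 417 to 541 at 3M. Their part in the level of Ctsl was not tested.

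Kitl, stem cell factor, which binds the receptor KIT on early progenitors, was low and variable. It had 22.1 and 27.0 CPM at 2W, 18.4 and 15.5 at 6W and 31.4 and 18.5 at 3M. The 2 libraries of 3M differed more than the means of the ages did, and without 3M replicate 1 the change from 2W to 3M went from 0.02 (SE 0.26) to -0.38. Kit itself stood at 22.5 to 26.0 CPM in all 6 libraries and was not called.

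Tbata, a thymic epithelial gene linked to the control of epithelial proliferation, had 105 and 94.8 CPM at 2W, 123 and 132 at 6W and 105 and 116 at 3M. The 6W libraries were the highest, opposite to Psmb11, without a call (0.36, SE 0.12, adjusted p = 0.187, then -0.21, SE 0.12, adjusted p = 0.446). Krt8 and Krt18, the partner keratins of the cortical network, had 201 to 267 and 332 to 338 CPM at 2W, 206 to 215 and 286 to 290 at 6W, and 174 to 242 and 324 to 418 at 3M. The 3M libraries spread widely for both, with replicate 2 the higher one, as did the 2W libraries for Krt8. Neither was called in any comparison (2W to 3M: Krt8 -0.17, SE 0.20, and Krt18 0.15, SE 0.14). Both keratins have processed pseudogenes, and how reads shared with such copies were counted is not given in the sources used here.

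**Figure D2:**
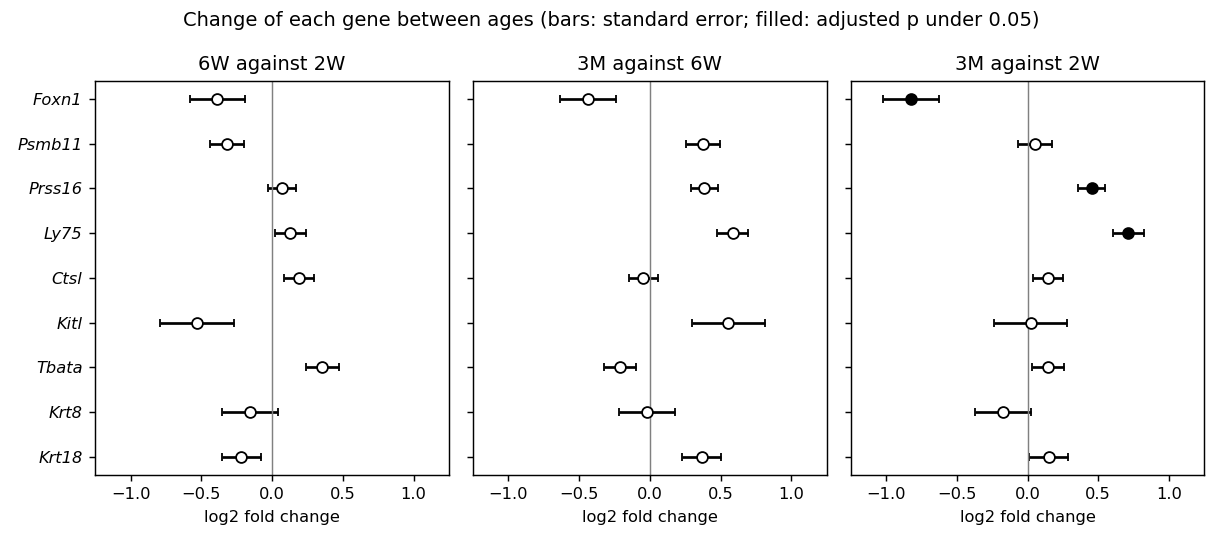
Log2 fold change (horizontal axis) of the 9 genes (vertical axis) in each of the 3 comparisons; bars are standard errors and filled points have an adjusted p under 0.05. The only filled points are those of Foxn1 (-0.82), Prss16 (0.45) and Ly75 (0.71) at 3M against 2W.

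The genes did not move as a block. Within a library, the ratio of Prss16 to Foxn1 counts was 22.3 and 29.5 at 2W, 42.7 and 29.2 at 6W and 58.6 and 64.8 at 3M. The ratio of Psmb11 to Foxn1 was 3.55 and 4.97, 5.13 and 3.80, and 8.11 and 7.18 at these ages. For both, the 3M libraries stood above all others and the 2W and 6W libraries overlapped. Over the 6 libraries and 36 pairs of the 9 genes, Pearson's r of log2 CPM ran from -0.89 (Foxn1 with Prss16) to 0.95 (Prss16 with Ly75). These points share age and library, and the values are a description. Among the 10 genes most like Foxn1 by the same measure, of 10939 with a mean of at least 5 CPM, were Zcchc8 (r = 0.998), Gata3 (0.990), Sox13 (0.990), Bysl, Trim41, Uchl3, Lsm5, Tpgs2 and Uaca (0.981). Gata3 and Sox13 are transcription factors of T lineages, and none of the other 8 cortical genes is on that list.

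Per length, the deposited FPKM summed over transcripts put Ctsl first (349 ± 6.89 at 2W, SD, n = 2) and Prss16 next (262 ± 2.88), followed by Krt18 (208 ± 2.26), Krt8 (107 ± 21.0) and Tbata (85.8 ± 6.96), then Ly75 (39.6 ± 2.04), Psmb11 (21.7 ± 1.16), Foxn1 (7.0 ± 1.31) and Kitl (4.14 ± 0.608). By their means, Tbata (116) stood above Krt8 (102) at 6W and Kitl (5.13) above Foxn1 (4.14) at 3M, and the order was otherwise the same at the 3 ages. At 3M the libraries of close neighbours mixed. Ctsl (379 and 433) and Prss16 (359 and 397) overlapped, as did Krt8 (81.7 and 118) with Tbata (92.1 and 104), and Kitl (3.93 and 6.34) with Foxn1 (4.13 and 4.15). The regulator was thus among the lowest 2 of the 9 at every age.

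The Foxn1 counts fell on 3 transcripts, of which the assembled TCONS_00021060 held 82.3% over all libraries and the annotated ENSMUST00000108294 held 13.7%. The annotated one was listed at 0 in 4 libraries and took 178 counts in 6W replicate 2 and 119 in 3M replicate 1. In 3M replicate 1 it held 49.8% of the gene, against 0 in 3M replicate 2, while the sums of the gene in these libraries were alike (14.3 and 13.8 CPM). The split between the transcripts therefore varied between replicates, and a table of annotated transcripts alone would miss most of Foxn1. Ly75 fell on 2 annotated transcripts, ENSMUST00000112533 (57.0%) and ENSMUST00000028362 (43.0%), and both had more counts in each 3M library than in either 2W library. The first held 53.4% to 58.4% of Ly75 at 2W and 6W, 65.8% in 3M replicate 1 and 53.6% in 3M replicate 2. Prss16 (99.7%), Kitl (95.5%) and Ctsl (95.7%) rested on 1 main transcript each, Psmb11, Krt8 and Krt18 on 1 in all libraries, and Tbata on several, led by ENSMUST00000148181 (65.3%) and ENSMUST00000151886 (15.6%).

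**Figure D3:**
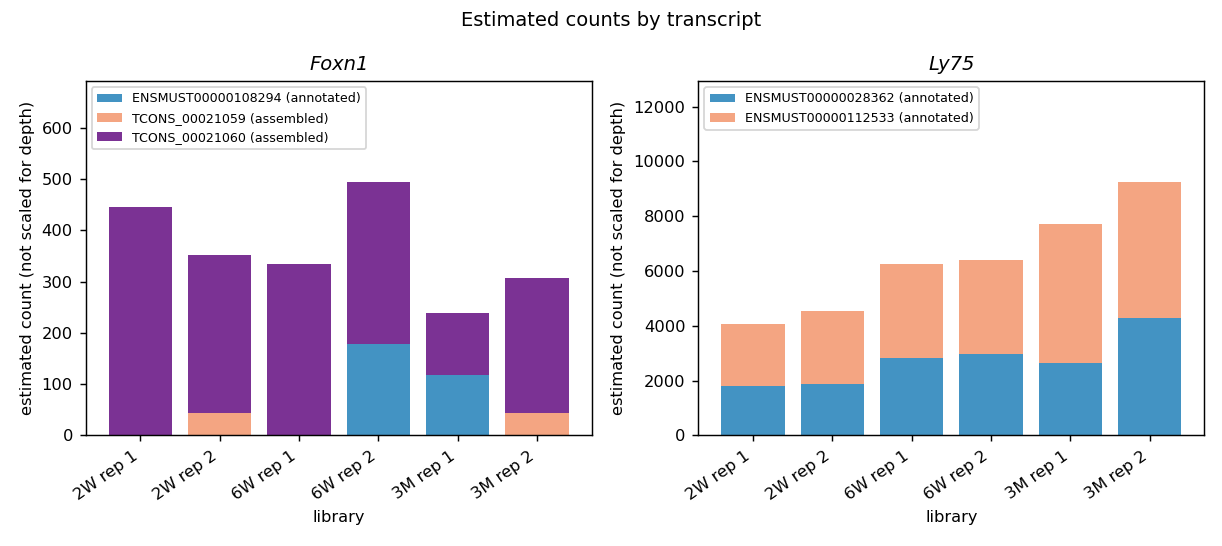
Estimated counts (vertical axis, not scaled for depth) of Foxn1 and Ly75 in each library (horizontal axis), stacked by transcript. The annotated Foxn1 transcript has counts only in 6W replicate 2 and 3M replicate 1, whereas both Ly75 transcripts have counts in all 6 libraries.

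Genes that act before or beside FOXN1 in the thymic epithelium were taken from a list of 13, of which 11 could be tested (Tbx1 and Fgf7 were too low). From 2W to 3M, 5 rose and 0 fell, where 7.91% of all genes tested rose and 3.09% fell. Trp63, which maintains epithelial progenitors, went from 33.3 and 33.1 CPM at 2W to 58.1 and 54.3 at 6W and 90.8 and 86.5 at 3M. The ages did not overlap, and the log2 change was 0.76 (adjusted p = 0.0350) from 2W to 6W and 1.42 (SE 0.11, adjusted p = 0.00437) from 2W to 3M. Fgfr2, the receptor through which fibroblast growth factors act on epithelium, went from 20.9 and 22.5 CPM to 44.8 and 48.4 between 2W and 3M (1.10, SE 0.12, adjusted p = 0.00697). Both calls at 3M were kept with each library left out. Pax9 (0.77, adjusted p = 0.0179) and Six4 (0.74, adjusted p = 0.0356), factors of the pharyngeal pouch from which the thymus forms, rose less. The call of Pax9 was kept under 6 of 8 other ways of processing and that of Six4 under 4 of 8. Both were lost in the fit of only the 4 libraries compared. Pax1 (0.24), Eya1 (0.74), Hoxa3 (-0.03) and Wnt4 (0.12) were not called. Bmp4 (0.885 and 0.429 CPM at 2W, 2.04 and 0.940 at 3M) was low and not called either. The same held for Fgf10 (0.442 and 0.184 CPM at 2W, 1.38 and 1.16 at 3M). Changes on the list reached 2.00 from 2W to 3M. By the study's threshold 3 of the 11 passed over that span, as did 9.35% of all genes. The median change of the 11 was 0.74.

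Among 7 other genes of the cortex, Dll4, the Notch ligand that commits progenitors to the T lineage and is a target of FOXN1, had 26.5 and 25.4 CPM at 2W, 9.64 and 11.0 at 6W and 15.5 and 13.0 at 3M. It was highest at 2W and lowest at 6W, without overlap. It fell by 1.33 on the log2 scale (SE 0.15, adjusted p = 0.0231) from 2W to 6W and was still lower at 3M than at 2W (-0.87, SE 0.15, adjusted p = 0.0185). The first call was kept under 6 of 8 other ways of processing and the second under 7 of 8. Both were lost in a fit with a replicate block. Its receptor Notch1 moved alongside, with 886 and 865 CPM at 2W, 453 and 479 at 6W and 501 and 565 at 3M (-0.91, adjusted p = 0.0231, and -0.72, adjusted p = 0.0118, against 2W). Endothelial cells also make Dll4, and the summed level of 6 endothelial markers was 232 and 233 CPM at 2W, 216 and 226 at 6W and 198 and 200 at 3M, with 0 of 6 called by edgeR in any comparison (1, 1 and 3 at an unadjusted p under 0.05 from 2W to 6W, 6W to 3M and 2W to 3M) and none at 0. Most of this sum was Pecam1, with a mean of 179 CPM at 2W and 142 at 3M, whereas the median log2 change of the 6 markers was -0.01 from 2W to 6W and 0.40 from 2W to 3M, with 4 of 6 above 0 in the latter. Their part in the Dll4 result was not tested.

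Enpep, a peptidase on the surface of cortical epithelium, had 25.9 and 26.8 CPM at 2W and 69.8 and 59.4 at 3M (1.29, SE 0.14, adjusted p = 0.00693), and it was higher already at 6W (0.97, adjusted p = 0.0362). Cxcl12 (0.75, adjusted p = 0.0254), the chemokine that holds early thymocytes in the cortex, and Ackr4 (1.19, adjusted p = 0.0204), a scavenging receptor of chemokines, rose from 2W to 3M. Both kept the call under 6 of 8 other ways of processing and lost it in the fit of only the 4 libraries compared. Ccl25 (-0.03), Il7 (-0.01) and Cd83 (-0.24) were not called. In all, 1 of the 7 rose and 1 fell from 2W to 6W, where 1.74% of all genes were called. From 2W to 3M, 3 rose and 1 fell, where 7.91% and 3.09% of all genes did. The median change of the 7 was -0.01 in the latter. Of the thymocyte receptors for these ligands, Ccr9, which binds CCL25, fell from 2W to 3M (-0.50, adjusted p = 0.0228). Its call was kept under 5 of 8 other ways of processing and lost in the fit of only the 4 libraries compared. Il7r rose over that span (1.10, adjusted p = 0.0126), and Kit and Cxcr4 were not called.

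**Figure D4:**
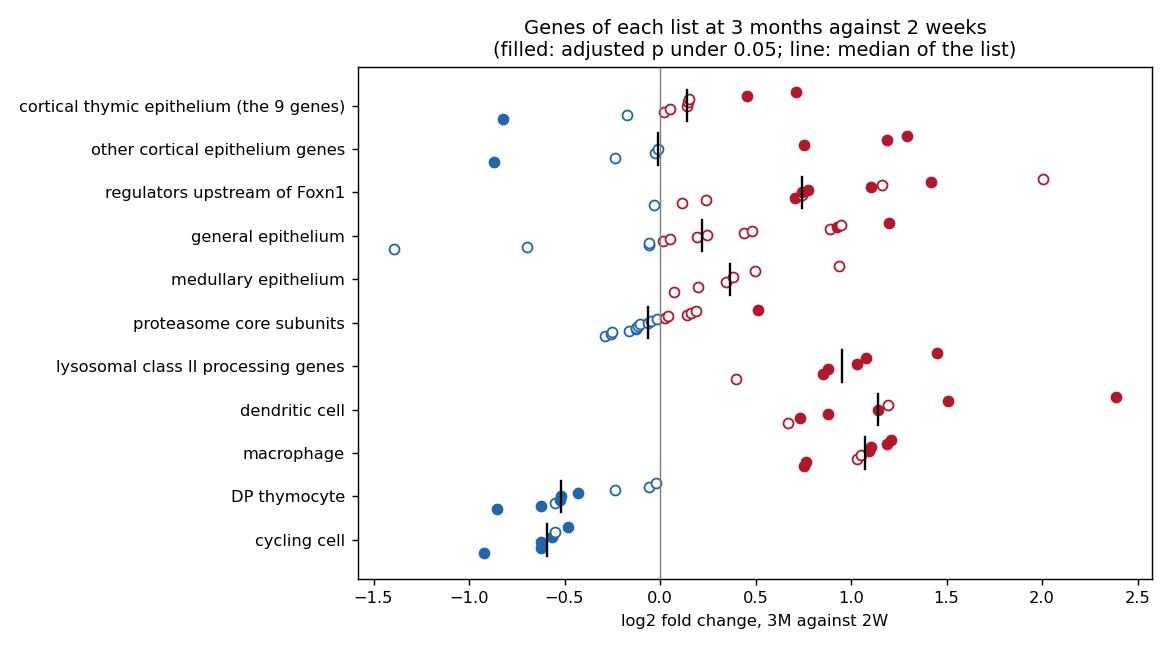
Log2 fold change at 3M against 2W (horizontal axis) of each gene of 11 lists (vertical axis); red is higher and blue lower at 3M, filled points have an adjusted p under 0.05 and black lines are medians. The medians of the double-positive thymocyte (-0.52) and cycling cell (-0.59) lists lie below 0, and that of the 9 cortical genes is 0.14.

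Other marker lists show what else the organ's RNA held. Of 14 general epithelial genes, Cdh1 (0.92, adjusted p = 0.0173) and Krt19 (1.20, adjusted p = 0.0329) rose from 2W to 3M, with a median change of 0.22 for the list. Over all genes tested, 7.91% rose. Krt19 kept the call under 5 of 8 other ways of processing and lost it in the fit of only the 4 libraries compared. Epcam, the surface marker of epithelium, had 19.1 and 14.3 CPM at 2W, 21.3 and 24.1 at 6W and 16.5 and 23.0 at 3M, so that the 2W and 3M libraries overlapped. Of 6 tested genes of the medullary epithelium, Spib rose from 2W to 6W (0.74, adjusted p = 0.0444), and none was called from 2W to 3M, Aire included (6.70 to 8.69 CPM in all libraries). Among 17 core subunits of the proteasome, Psmb9, of the immunoproteasome, rose from 2W to 3M (0.52, adjusted p = 0.0273) and the other 16 were not called, with a median change of -0.06. The call of Psmb9 was kept under 6 of 8 other ways of processing and lost in the fit of only the 4 libraries compared.

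Over the same span 5 of 9 double-positive thymocyte markers and 5 of 6 cycling cell genes fell, as did 3.09% of all genes. The sums of the thymocyte list were 14665 and 16405 CPM at 2W against 11780.5 and 11756 at 3M. Adipocyte genes rose (5 of 6, beside 7.91% of all genes), with sums of 39.4 and 39.6 CPM at 2W and 162 and 305 at 3M. Among 7 fibroblast genes 2 rose (Pdgfra and Dcn) and 2 fell (Col1a1 and Col3a1). No B cell (0 of 5), red blood cell (0 of 4) or skeletal muscle gene (0 of 2 tested) was called, and of 3 tested parathyroid and thyroid genes Pth rose (3.68, adjusted p = 0.0117), from 0.67 and 1.39 CPM at 2W to 8.60 and 17.9 at 3M. The part of these cell types in the levels of the 9 genes was not tested. Of the calls of single genes on all lists besides the 9, the 14 from 2W to 6W were each lost without either 2W or either 6W library. Of the 51 from 2W to 3M, 24 were lost in the fit of only the 4 libraries compared and 8 were kept with each library left out (Trp63, Fgfr2, Ctss, Ctsb, Col1a1, Col3a1, Cidec and Cfd). Without 3M replicate 2, the library with the high red blood cell genes, 1 of the 9 genes was called from 2W to 3M (Ly75), and without 3M replicate 1 there were 2 (Ly75 and Prss16).

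The small RNA of the same ages gave the levels of miRNAs known from epithelium. MicroRNAs (miRNAs) bind transcripts through their seed, bases 2 to 8, and those of the miR-200 family, miR-205 and miR-203 are known from epithelial cells. Mature sequences from RefSeq (build GRCm38.p6) were found for 13 of the 14 miRNAs examined. Those of the miRNAs that the results turn on are printed 5′ to 3′ with the seed in capitals, and miR-125a-5p is shown because it is known to target Foxn1.
miR-205-5p: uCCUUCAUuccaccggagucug
miR-200a-3p: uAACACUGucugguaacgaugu
miR-141-3p: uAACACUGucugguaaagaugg
miR-200b-3p: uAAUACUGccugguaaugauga
miR-200c-3p: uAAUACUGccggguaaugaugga
miR-429-3p: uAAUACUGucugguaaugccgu
miR-203-3p: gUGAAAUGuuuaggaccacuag
miR-125a-5p: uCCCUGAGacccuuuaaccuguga
The seed AACACUG is shared by miR-200a-3p and miR-141-3p, and AAUACUG by miR-200b-3p, miR-200c-3p and miR-429-3p. MiR-205-5p lies at chr1:193507503-193507524 on the - strand and miR-125a-5p at chr17:17830817-17830840 on the + strand.

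Of 11 epithelial miRNAs, 4 rose from 2W to 6W, 1 from 6W to 3M and 8 from 2W to 3M, and none fell. Of 822 miRNAs tested, 2.31%, 0.487% and 13.5% rose in these comparisons (8.64%, 0.852% and 29.9% were called in either direction). The 4 calls from 2W to 6W were all lost without 2W replicate 2 or without either 6W library, the 1 from 6W to 3M without either 6W library, and the count from 2W to 3M was 5 in place of 8 without 2W replicate 2 or without 3M replicate 1. The median of all miRNAs was -0.13 from 2W to 6W, 0.02 from 6W to 3M and -0.12 from 2W to 3M, against which those of the 11 were 0.51, 0.38 and 0.89. MiR-205-5p had 1211 and 1070 CPM at 2W, 2467 and 2098 at 6W and 5630 and 4960 at 3M. The ages did not overlap, and it was the one miRNA of the list called in all 3 comparisons (1.0, adjusted p = 0.0164, then 1.21, adjusted p = 0.0187, and 2.22, SE 0.20, adjusted p = 0.000173, from 2W to 3M). The last was kept with each library left out, and the calls of the 2 steps in 3 and 4 of 6 such fits.

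All 5 members of the miR-200 family rose from 2W to 3M, and the difference between their seeds was not tested. MiR-200a-3p rose by 1.22 (SE 0.20) and miR-141-3p by 0.87 (SE 0.25) with the first seed. MiR-200b-3p rose by 0.89 (SE 0.21), miR-200c-3p by 0.89 (SE 0.21) and miR-429-3p by 0.96 (SE 0.21) with the second. MiR-203-3p (0.95, SE 0.21, adjusted p = 0.00823) and miR-96-5p (0.87, SE 0.25, adjusted p = 0.0245) rose as well, and miR-182-5p (0.53, adjusted p = 0.0573), miR-183-5p (0.38) and miR-375-3p (0.24) were not called. The rises of miR-141-3p and miR-96-5p were lost in the fit of only the 4 libraries compared. Which cells of the organ made these miRNAs was not tested, and of the 9 cortical genes 2 rose and 1 fell over the same span.

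MiR-125a-5p had 1054 and 773 CPM at 2W, 1680 and 1282 at 6W and 4792 and 2436 at 3M. The ages did not overlap, and the 3M replicates differed widely. It rose by 1.98 (SE 0.32, adjusted p = 0.00250) from 2W to 3M, while 0.70 (adjusted p = 0.185) and 1.29 (adjusted p = 0.0849) in the 2 steps were not called. Foxn1, measured in separate RNA libraries of these ages, was lowest at 3M. Both differ between the same ages, and no test of a link was made. Of the other miRNAs that the study names for the thymic epithelium, miR-195a-5p rose from 2W to 3M (1.38, adjusted p = 0.00770) and miR-181a-5p was not called (-0.23, adjusted p = 0.326).

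**Figure D5:**
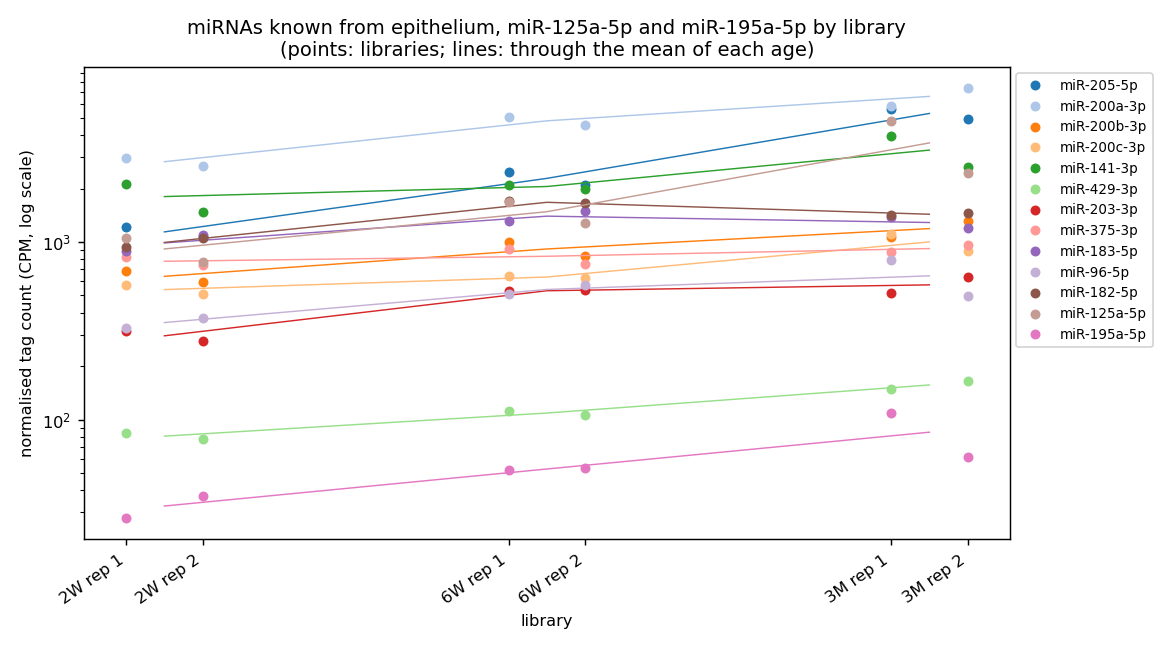
Normalised tag counts (CPM, log scale, vertical axis) of 13 miRNAs in each library (horizontal axis); points are libraries and lines run through the mean of each age. MiR-205-5p climbs from 1070 and 1211 CPM at 2W to 4960 and 5630 CPM at 3M, and miR-375-3p stays between 738 and 958 CPM.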

How the data were processed

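Whole thymus RNA of 3 ages, with 2 libraries each, was sequenced after ribosomal RNA depletion (stranded) and as small RNA. The authors deposited estimated counts and FPKM per transcript, tag counts per miRNA and junction counts per circRNA. The quantification programs are not given in the sources used here. The submitters' processing notes name mm8 and Bowtie 0.12.2 without a role. Transcripts were summed by symbol (symbols that differ in case joined for 665 genes) and rounded. Of the counts, 84.1% were not whole, and 0.700% to 1.20% lay on 372 transcripts without a symbol, which were left out. Counts were filtered with filterByExpr by age, scaled with TMM and tested in edgeR 4.0.16 (R 4.3.3, quasi-likelihood F test, prior count 0.125) with all 6 libraries and age as the only term, and the tests were tested on simulated data. Standard errors follow from the fold change and F. Sums and figures were made in Python 3.11.15 (pandas 2.3.3, numpy 2.4.6, matplotlib 3.10.9). MiRNA libraries held 9181478 to 10994118 tags.

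The 9 genes and all lists were chosen with earlier results of these data known. Named are all 9, list genes with a call or otherwise up to 4 a list (more for genes before or beside FOXN1). The 10 genes most like Foxn1 and transcripts with at least 10% of a gene are named too. Of the genes this names, 2 are not reported here. The alternatives were DESeq2 1.42.0, scaling by total counts alone, no filter, the 4 libraries compared alone, a replicate block, symbols kept apart by case, annotated transcripts only, limma 3.58.1 on log2(FPKM + 0.1), and each library left out.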

Additional observations from a re-analysis of the deposited data

Results flagged for a closer look

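The table of circular RNAs was not used in the comparisons. It holds 4 circRNAs at the loci of the 9 genes. A junction annotated to Prss16 (novel_circ_001544, spanning exon and intron) had 4 counts in 2W replicate 2 and 0 in the other 5 libraries, and a junction annotated as antisense to Prss16 (novel_circ_001545) had 4 counts in the same library and 0 elsewhere. Both were taken up because they exceed the 3 counts that a listing of 0 allows. One antisense to Ctsl (novel_circ_001675) had 2 counts and an intronic one of Ly75 (novel_circ_003396) 3 counts, each in 3M replicate 1 alone. At 2 libraries an age no comparison of these counts was made.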

How the results depend on the processing

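Over the 9 genes and 3 comparisons, other settings left 203 values with the same direction and side of the threshold, lost a call in 8, gained one in 2 and changed the sign in 3. With a library left out these were 136, 15, 0 and 11. From 2W to 3M, 3 of the 9 genes were called, 0 in the fit of only the 4 libraries compared (which has fewer libraries), 1 under the replicate block (Ly75), and 0 to 2 with a library left out. From 6W to 3M, DESeq2 called 2 in place of 0. Of the calls of listed genes besides the 9, the block lost 14 of 14 from 2W to 6W and 24 of 51 from 2W to 3M. Deviations of equal replicate numbers correlated at -0.058 (2W and 6W), 0.353 (6W and 3M) and -0.178 (2W and 3M) over genes. Over miRNAs these values were 0.224, -0.070 and -0.150. Such correlations cannot tell whether equal numbers share a factor such as a batch, and the labels do not say. Epithelial miRNAs called from 2W to 6W were 1 under the replicate block and 0 to 5 with a library left out, in place of 4. They were 0 to 1 from 6W to 3M and 5 to 8 from 2W to 3M with a library left out. The lone library left at an age is assumed to vary like the others.

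Foxn1 changed sign in annotated transcripts only, with 9.22 from 2W to 6W and 9.10 from 2W to 3M, which is a comparison against libraries at 0 and no bound. Kitl from 2W to 3M was -0.015 under the replicate block. With a library left out, changes that were not called crossed 0: Krt8 ranged from -0.32 to 0.065 (2W to 6W), from -0.33 to 0.21 (6W to 3M) and from -0.46 to 0.073 (2W to 3M), Ctsl from -0.18 to 0.043 (6W to 3M), Psmb11 ranged from -0.039 to 0.13, Kitl from -0.38 to 0.32 and Krt18 from -0.080 to 0.35 (2W to 3M). The other causes were not tested.

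Genes called overall were 257 from 2W to 6W. They were 888 by DESeq2, 394 with total counts, 467 without a filter, 662 in the fit of 4 libraries, 402 with limma on FPKM, 124 with symbols kept apart by case, 5 under the replicate block and 4 in annotated transcripts only. Leaving out either 2W or either 6W library left 0 to 2, and leaving out a 3M library gave 615 and 658. From 6W to 3M 1 was called, with 341 by DESeq2, 19 without a filter and 0 to 11 with a library left out. From 2W to 3M they were 1629, with 663 in the fit of 4 libraries, 742 under the block, 922 in annotated transcripts only and 239 to 1741 with a library left out.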
